A study of Mus musculus with 10 samples.

Results

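Described here are 9 of the 23337 genes of the deposited count table: the primitive streak transcription factors T, Eomes, Tbx6, Mixl1, Gsc, Evx1, Lhx1 and Mesp1, and the secreted protein follistatin (Fst). They were taken by symbol, and all 9 were present and passed the filter on low counts. The choice was made with earlier results of these data known, so their counts beside the shares of all genes are a description only. The samples were mouse embryoid bodies, aggregates of differentiating embryonic stem cells, from the iHA-Etv2 line, where doxycycline induces a tagged copy of Etv2, an ETS factor needed for blood and endothelium. The 10 libraries of bulk RNA sequencing formed 5 groups of 2. At day 2.5 these were Flk1-positive cells treated with doxycycline (Dox), Dox-treated samples and untreated samples, and at day 2 they were Dox-treated and untreated samples. Flk1 is the receptor encoded by Kdr. Every group carries the same inducible line, the 8 libraries outside the first group are labelled as not Flk1-positive without saying whether they were unsorted or sorted as negative, and the labels give neither the dose nor the start of Dox treatment.

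The primitive streak is the region of the gastrulating embryo where epiblast cells leave the epithelium and become mesoderm and definitive endoderm. Nodal, Wnt and Fgf signals switch on T-box and homeobox factors there: T (brachyury) marks the streak as a whole, Eomes is needed for the exit of mesoderm and for endoderm, and Mesp1 marks the earliest cardiovascular mesoderm. Follistatin binds and blocks activins and some bone morphogenetic proteins. In embryos and in embryoid bodies, Flk1-positive mesoderm arises from cells that have expressed T.

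Promoter sequence was taken for 7 of the 9 genes from RefSeq (GRCm38.p6), as the 250 bases before the RefSeq transcript start, and 6 short motifs were searched in exact letters on both strands. These were CCGGAA (an ETS site), GGTGTGA (a T-box site), CTTTGA (a Lef/Tcf core), TGTGGAT (FoxH1), CAGACA (Smad) and TAATCC (a Gsc-type homeobox site). Of 32851 promoter windows of that length, 12% held the first, 3.33% the second, 13.8% CTTTGA, 2.78% TGTGGAT, 17.1% CAGACA and 6.25% TAATCC. The windows that held a match, T, Mesp1 and Evx1, are shown with that of Lhx1, which held none and had the largest rise of the 9 in Flk1-positive against other Dox samples. They lie at chr17:8434173-8434422 (plus strand), chr7:79793591-79793840 (minus), chr6:52313248-52313497 (plus) and chr11:84525535-84525784 (minus), and are written 5′ to 3′ on the gene's strand with the matches in capitals.
T: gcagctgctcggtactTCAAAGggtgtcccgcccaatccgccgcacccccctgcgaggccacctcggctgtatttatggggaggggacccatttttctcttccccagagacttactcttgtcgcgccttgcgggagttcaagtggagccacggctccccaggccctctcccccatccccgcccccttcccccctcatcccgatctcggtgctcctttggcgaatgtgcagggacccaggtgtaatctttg
Mesp1: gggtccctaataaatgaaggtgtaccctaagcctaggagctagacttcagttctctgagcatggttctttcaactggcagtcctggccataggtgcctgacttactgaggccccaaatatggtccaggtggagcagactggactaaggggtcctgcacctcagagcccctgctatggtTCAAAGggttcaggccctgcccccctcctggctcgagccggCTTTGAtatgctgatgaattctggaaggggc
Evx1: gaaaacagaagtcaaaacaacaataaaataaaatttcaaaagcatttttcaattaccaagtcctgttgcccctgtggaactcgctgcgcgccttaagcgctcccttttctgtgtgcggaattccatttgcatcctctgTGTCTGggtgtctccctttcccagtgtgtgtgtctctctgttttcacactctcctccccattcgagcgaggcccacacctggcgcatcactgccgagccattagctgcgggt
Lhx1: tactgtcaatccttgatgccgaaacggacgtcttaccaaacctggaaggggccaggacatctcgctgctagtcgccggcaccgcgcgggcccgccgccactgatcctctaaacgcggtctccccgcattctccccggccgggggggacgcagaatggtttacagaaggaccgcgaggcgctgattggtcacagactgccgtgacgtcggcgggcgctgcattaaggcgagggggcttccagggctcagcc
The capitals in T and Mesp1 are CTTTGA or its reverse complement, at 234 bases before the start in T and at 31 and 72 bases in Mesp1, and those in Evx1 are the reverse complement of CAGACA at 112 bases. In GENCODE M21 the Mesp1 gene starts further upstream, at 79793788, so both of its matches lie within the gene as annotated there. A match in letters is a description and not a binding site. The letters CCGGAA were in none of the 7 windows, while shorter ETS letters such as GGAA were not searched. Their absence says nothing about binding of Etv2.

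Total counts per library ran from 18074070 to 36068329, so that 3 counts, the limit that a count of 0 allows, stood for 0.0824 to 0.164 CPM (counts relative to the TMM-scaled library size). Etv2 averaged 313 CPM in Flk1-positive, 263 in Dox and 7.04 in untreated samples of day 2.5, and 455 CPM in Dox and 16.9 in untreated samples of day 2. Kdr averaged 997 CPM in Flk1-positive, 419 in Dox and 7.23 in untreated samples of day 2.5, and 125 and 28.8 CPM in Dox and untreated samples of day 2. The sum of 14 endothelial markers was 2675 to 2746 CPM in Flk1-positive, 1043 to 1089 in Dox and 77.7 to 80.7 in untreated libraries of day 2.5, and 263 to 309 CPM in Dox and 125 to 134 in untreated libraries of day 2, with Emcn at 0 in the untreated groups and in Dox at day 2. In bulk RNA, fewer cells of a type and less RNA per cell cannot be told apart. The 2 Dox libraries of day 2 differed from each other most, at a chi-square of 32.6 for each gene, against 3.35 to 9.77 in the other pairs. Across genes, their difference was related to length (Spearman correlation -0.457) and GC content (0.323). In the Flk1-positive pair these values were -0.119 and 0.369. In the remaining pairs they were -0.100 to 0.0841 for length and -0.0291 to 0.0296 for GC content. Whether these trends caused the differences in single genes was not tested. Whether replicates came from separate cultures is not stated, so the p-values reflect the spread between these libraries alone, and that spread may be technical.

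The T-box gene T lies on chromosome 17 at 8434423 to 8442496 on the plus strand (GRCm38, GENCODE M21, as for all 9 genes). At day 2.5 it had 577 and 546 CPM in Flk1-positive, 368 and 356 CPM in Dox and 791 and 878 CPM in untreated libraries. At day 2 it had 416 and 430 CPM with Dox and 388 and 392 CPM without. The 3 groups of day 2.5 did not overlap, with Flk1-positive cells between the other groups, while at day 2 the groups lay close together. Eomes (chromosome 9, 118478212 to 118486132, plus strand) had 123 and 130 CPM in Flk1-positive, 336 and 333 CPM in Dox and 1204 and 1455 CPM in untreated libraries of day 2.5. At day 2 Eomes had 357 and 430 CPM with Dox and 563 and 549 CPM without. Unlike T, Eomes was lowest in the Flk1-positive cells of all 5 groups. Tbx6, which directs cells of the streak to paraxial mesoderm, lies on chromosome 7 at 126781483 to 126785560 on the plus strand. It had 5.70 and 4.77 CPM in Flk1-positive, 2.39 and 2.51 CPM in Dox and 2.48 and 3.94 CPM in untreated libraries of day 2.5, and 1.37 and 2.20 CPM with Dox and 1.95 and 2.24 CPM without at day 2. It was the lowest of the 9 genes in 4 of the 5 groups per kilobase, and its Dox and untreated values overlapped at both days.

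Of the homeobox genes, Mixl1, a factor of streak mesoderm and endoderm, lies on chromosome 1 at 180693043 to 180697034 on the minus strand. It had 38.6 and 33.9 CPM in Flk1-positive, 99.5 and 89.5 CPM in Dox and 469 and 490 CPM in untreated libraries of day 2.5. At day 2 it had 347 and 376 CPM with Dox and 213 and 197 CPM without. Mixl1 was thus above its untreated level at day 2 and below it at day 2.5. Goosecoid (Gsc), a repressor of the anterior streak and organizer (chromosome 12, 104471209 to 104473330, minus strand), had 1.78 and 0.689 CPM in Flk1-positive, 5.99 and 4.36 CPM in Dox and 30.5 and 28.4 CPM in untreated libraries of day 2.5. At day 2 it had 11.9 and 7.62 CPM with Dox and 14.6 and 15.1 CPM without. Gsc was highest in the untreated libraries at both days. Evx1, a factor of the posterior streak (chromosome 6, 52313498 to 52318378, plus strand), had 49.4 and 44.2 CPM in Flk1-positive, 24.7 and 20.6 CPM in Dox and 75.8 and 75.5 CPM in untreated libraries of day 2.5. It had 55.3 and 40.1 CPM with Dox and 64.1 and 67.0 CPM without at day 2. Like T, Evx1 was in the Flk1-positive cells between the other groups of day 2.5. The LIM homeobox gene Lhx1, which acts in mesendoderm and node (chromosome 11, 84518284 to 84525535, minus strand), had 33.4 and 29.5 CPM in Flk1-positive, 7.44 and 6.99 CPM in Dox and 37.2 and 37.5 CPM in untreated libraries of day 2.5. At day 2 Lhx1 had 18.8 and 23.2 CPM with Dox and 36.3 and 32.3 CPM without. Its Flk1-positive cells lay far above the other Dox libraries and just below the untreated ones.

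The basic helix-loop-helix gene Mesp1 (chromosome 7, 79792241 to 79793788, minus strand) had 0.372 and 0.477 CPM in Flk1-positive libraries, 9 counts in each, 2.77 and 1.56 CPM in Dox and 20.0 and 21.6 CPM in untreated libraries of day 2.5. At day 2 it had 14.4 and 7.72 CPM with Dox and 23.6 and 20.2 CPM without. Mesp1 was low in both Dox groups of day 2.5 and its untreated values lay between 20.0 and 23.6 CPM over both days. Fst (chromosome 13, 114452290 to 114458951, minus strand) had 15.9 and 11.2 CPM in Flk1-positive, 82.1 and 74.8 CPM in Dox and 422 and 417 CPM in untreated libraries of day 2.5, and 170 and 171 CPM with Dox and 281 and 280 CPM without at day 2. At each day its groups were far apart relative to the spread within pairs. Annotated antisense or overlapping genes cover 2.84% of the exon bases of Eomes, 2.54% of Evx1 and 2.51% of Fst, and since the strand setting of the counting is not given, reads from these bases could come from either gene.

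**Figure D1:**
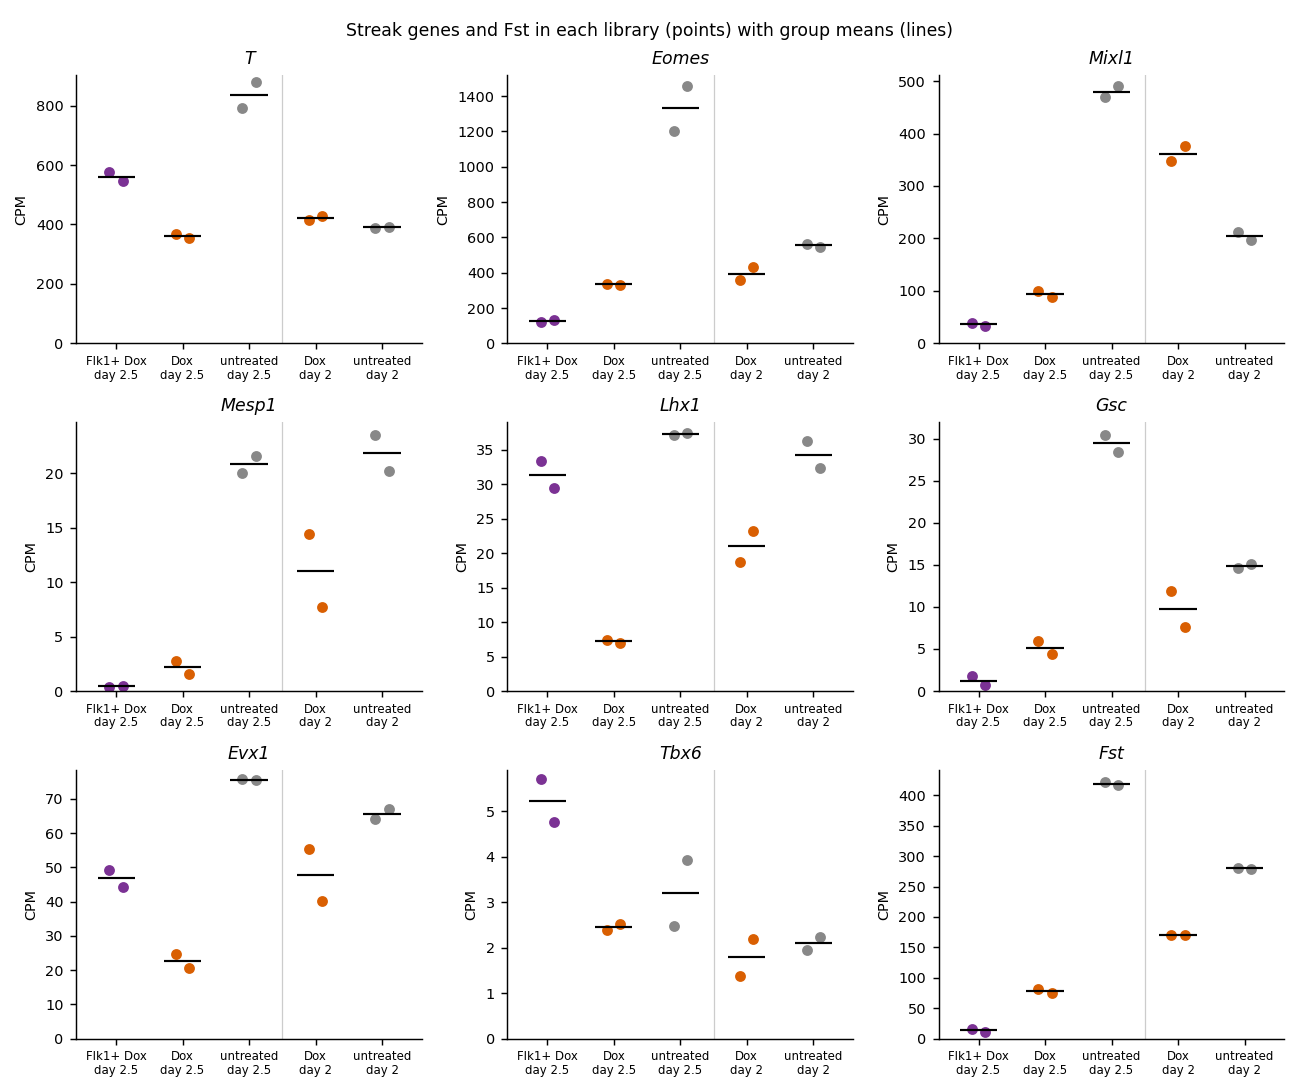
CPM of each of the 9 genes (vertical axes from 0) in the 10 libraries, with points for libraries and lines for group means of 2. T, Lhx1, Evx1 and Tbx6 are higher in Flk1-positive than in the other Dox libraries of day 2.5, and Mixl1 is higher with Dox than without at day 2 (347 and 376 against 213 and 197 CPM).

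Without Dox, part of the program was higher at day 2.5 than at day 2. T, Eomes, Mixl1, Gsc and Fst rose, 5 of the 9 genes, where 9.22% of all 14548 genes tested rose and 10.3% fell. The log2 fold change was 1.26 ± 0.11 for Eomes (SE, adjusted p = 6.74e-06), 1.22 ± 0.10 for Mixl1 (adjusted p = 3.75e-06), 1.10 ± 0.08 for T (adjusted p = 3.75e-06), 0.99 ± 0.24 for Gsc (adjusted p = 0.00985) and 0.58 ± 0.11 for Fst (adjusted p = 0.00255), all from edgeR's quasi-likelihood test with Benjamini-Hochberg adjustment over all genes. Mesp1 and Lhx1 had values of -0.07 ± 0.25 and 0.12 ± 0.13 (adjusted p = 0.867 and 0.564), Evx1 0.21 ± 0.14 (0.309) and Tbx6 0.62 ± 0.33 (0.211). The call of Gsc was lost when any 1 of the 4 compared libraries was left out. Of the naive pluripotency markers 8 of 10 tested were lower at day 2.5 (median log2 fold change -1.28), as were 6 of 13 endothelial markers (median -1.28). The naive sum was 314 to 348 CPM at day 2.5 against 391 to 405 CPM at day 2, and the endothelial sum 77.7 to 80.7 against 125 to 134 CPM. The neuroectoderm sum was 300 to 323 against 249 to 255 CPM and the extraembryonic endoderm sum 197 to 207 against 231 to 242 CPM. Of the 5 neuroectoderm markers tested 1 was higher and 1 lower, and of the 7 extraembryonic endoderm markers 1 was higher and 2 lower. The part of these cell types in the result was not tested.

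With Dox, 8 of the 9 genes fell below their untreated level at day 2.5, where 13.8% of all genes tested fell and 16.1% rose. The largest difference was that of Mesp1, at -3.26 ± 0.29 on the log2 scale (edgeR, adjusted p = 5.07e-07). Gsc had -2.51 ± 0.25 (adjusted p = 1.74e-06), Fst -2.42 ± 0.12 (3.75e-10), Lhx1 -2.37 ± 0.14 (5.49e-09) and Mixl1 -2.34 ± 0.10 (9.44e-11). Eomes fell by 1.99 ± 0.11 (adjusted p = 1.69e-09), Evx1 by 1.74 ± 0.14 (1.59e-07) and T by 1.21 ± 0.08 (3.22e-08), which made T the least reduced of the 8. Tbx6 had -0.39 ± 0.32 (adjusted p = 0.388). Ranked among the 14548 genes from the lowest fold change, Mesp1 stood at place 24, Gsc at 52, Fst at 58, Lhx1 at 62, Mixl1 at 65, Eomes at 110, Evx1 at 164 and T at 360. The endothelial marker sum was 1043 to 1089 CPM with Dox and 77.7 to 80.7 CPM without, and the naive pluripotency sum 203 to 207 against 314 to 348 CPM. The lower naive sum did not reflect the list as a whole. Of its 10 markers tested 3 rose, Tbx3, Tfcp2l1 and Klf4, and 2 fell (median log2 fold change 0.43). Nanog, which was among those that fell, had 73.4 CPM with Dox and 252 CPM without. The neuroectoderm sum was 350 to 364 against 300 to 323 CPM and the extraembryonic endoderm sum 324 to 327 against 197 to 207 CPM, with Neurog2 at 0 with Dox, Afp at 0 in both groups and Ttr and Emcn at 0 without. Of the neuroectoderm markers 3 of 5 tested rose, and of the extraembryonic endoderm markers 5 of 7, while none of either list fell. Sox7, which is on both the endothelial and the extraembryonic endoderm list, had 55.5 CPM with Dox and 0.251 CPM without. The part of these cell types in the result was not tested.

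At day 2 the differences with Dox were smaller and did not all have the same sign. Mixl1 rose by 0.82 ± 0.09 on the log2 scale (edgeR, adjusted p = 5.84e-05), the only 1 of the 9 genes called higher, where 3.11% of all genes tested rose. Of the others 4 fell, where 1.56% of all genes fell. Mesp1 fell by 0.99 ± 0.26 (adjusted p = 0.0379), Fst by 0.72 ± 0.11 (0.000823), Lhx1 by 0.71 ± 0.14 (0.00552) and Eomes by 0.50 ± 0.10 (0.0109). Values for the others were 0.12 ± 0.08 for T (adjusted p = 0.542), -0.60 ± 0.25 for Gsc (0.216), -0.46 ± 0.14 for Evx1 (0.0744) and -0.23 ± 0.35 for Tbx6 (0.82). Mixl1 and Fst were called in all 16 alternative settings, Mixl1 with log2 values between 0.74 and 0.87. Of the other calls, Fst alone was left as lower when untreated day 2 replicate 1 was left out or when the compared groups were fitted alone, and Fst and Lhx1 were left without untreated day 2 replicate 2. Mesp1 held its call in only 8 of the 16 settings, with log2 values from -1.51 to -0.61 and adjusted p-values from 7.49e-06 to 0.298 in edgeR and DESeq2. Its call was also lost without Dox day 2 replicate 2 and without either Flk1-positive or either untreated library of day 2.5. The 2 Dox libraries of this day differed 1.86 times from each other in Mesp1, 1.61 times in Tbx6, 1.56 times in Gsc and 1.38 times in Evx1, and without Dox day 2 replicate 1 Gsc and Evx1 were called lower as well. The exons of Mesp1, Tbx6, Gsc and Evx1 had 59.1% to 66.6% GC, and those of the others of the 9 genes 44.3% to 53.9%. Over all 16 settings Gsc was called in 2 and Evx1 in 5. The endothelial marker sum was 263 to 309 CPM with Dox and 125 to 134 CPM without, and the naive pluripotency sum 247 to 265 against 391 to 405 CPM. Of the 10 naive markers tested only Nanog was called, as lower, with 87.0 CPM with Dox and 216 CPM without. The median log2 fold change of that list was -0.02. The neuroectoderm sum was 282 to 290 against 249 to 255 CPM and the extraembryonic endoderm sum 257 to 259 against 231 to 242 CPM. None of the 5 neuroectoderm markers tested was called, and of the 7 extraembryonic endoderm markers 1 was called higher. The part of these cell types in the result was not tested.

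**Figure D2:**
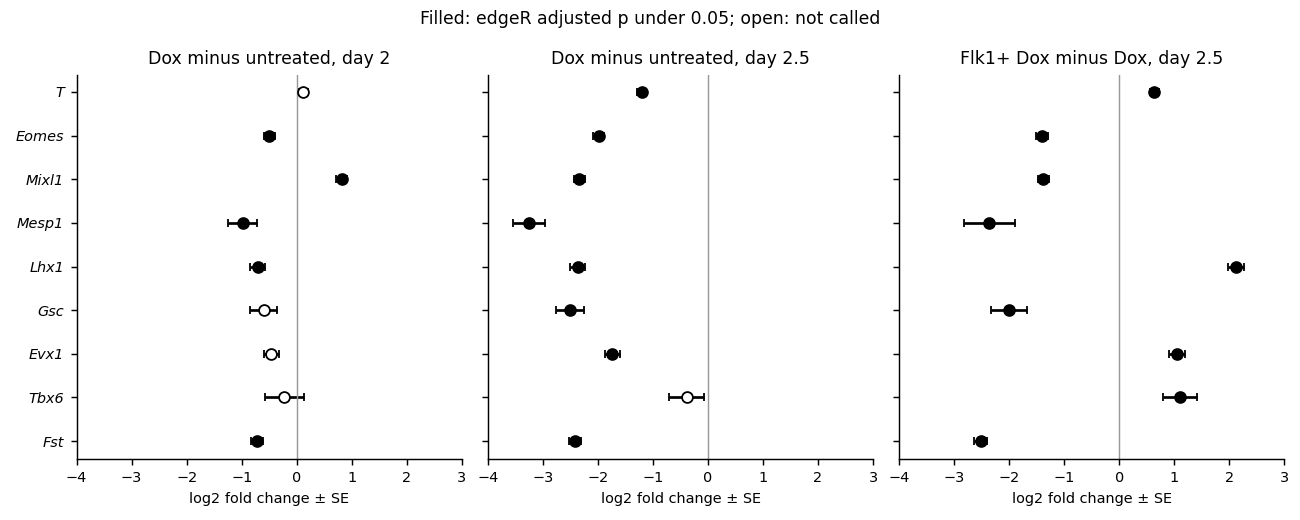
Log2 fold changes (horizontal axes) of the 9 genes with their SE as bars, for the comparisons named above each panel. Mixl1 is at 0.82 with Dox at day 2 and at -2.34 with Dox at day 2.5, and T, Lhx1, Evx1 and Tbx6 are above 0 in Flk1-positive against other Dox samples.

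The change between the days therefore ran differently with and without Dox. In Dox samples 7 of the 9 genes were lower at day 2.5 than at day 2, where 23.1% of all genes were lower and 22.9% higher. Mesp1 fell by 2.35 ± 0.29 on the log2 scale (edgeR, adjusted p = 1.6e-05), Mixl1 by 1.94 ± 0.10 (2.3e-09), Lhx1 by 1.54 ± 0.14 (1.05e-06), Fst by 1.12 ± 0.11 (2.21e-06), Evx1 by 1.07 ± 0.14 (2.38e-05), Gsc by 0.91 ± 0.26 (0.00864) and T by 0.23 ± 0.08 (0.0381). Eomes had -0.23 ± 0.10 (adjusted p = 0.0806) and Tbx6 0.46 ± 0.34 (0.284). The call of T was lost when either Dox library of day 2.5 or either untreated library of day 2 was left out, with length and GC trends removed, and with the compared groups fitted alone, so that it held in 10 of 16 settings. That of Gsc was lost without Dox day 2 replicate 1 or Dox day 2.5 replicate 2. Of the endothelial markers 12 of 13 tested were higher at day 2.5 and 1 lower (median log2 fold change 2.43), and of the naive pluripotency markers 4 of 10 were lower and 2 higher (median -0.84). Of the neuroectoderm markers 3 of 5 were higher, and of the extraembryonic endoderm markers 5 of 7 were higher and 2 lower, and their part in the result was not tested.

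The interaction of Dox and day tests whether the Dox effect at day 2.5 differs from that at day 2. It was negative for 8 of the 9 genes, where 5.24% of all genes tested had a negative call and 6.87% a positive one. Mixl1, whose effect changed sign, had the largest value, -3.16 ± 0.14 (edgeR, adjusted p = 2.26e-09), and stood at place 33 from the lowest of the 14548 genes. Mesp1 had -2.27 ± 0.38 (adjusted p = 0.00112), Gsc -1.90 ± 0.35 (0.00211), Fst -1.70 ± 0.16 (4.37e-06) and Lhx1 -1.66 ± 0.19 (4.54e-05). Eomes had -1.49 ± 0.15 (adjusted p = 9.3e-06), T -1.32 ± 0.12 (3.16e-06) and Evx1 -1.28 ± 0.19 (0.00046), while Tbx6 had -0.16 ± 0.48 (0.872). These values use the same libraries as the comparisons above and are not separate evidence.

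**Figure D3:**
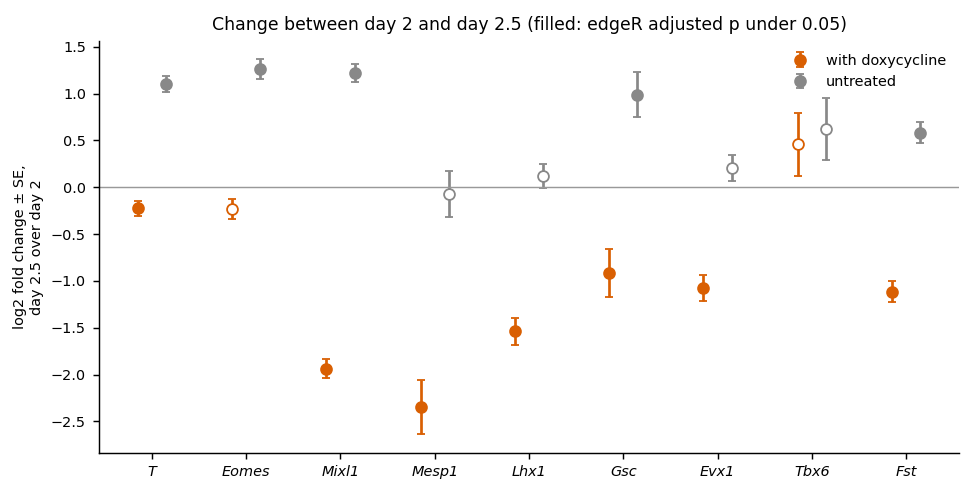
Log2 change of each gene from day 2 to day 2.5, with SE bars, in Dox-treated and in untreated samples. Mixl1 is at -1.94 with Dox and 1.22 without, and T at -0.23 with Dox and 1.10 without.

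Flk1-positive cells differed from the other Dox samples of day 2.5 in all 9 genes, in both directions. Lhx1 rose by 2.12 ± 0.14 on the log2 scale (edgeR, adjusted p = 4.25e-08), Tbx6 by 1.10 ± 0.31 (0.0108), Evx1 by 1.05 ± 0.14 (3.28e-05) and T by 0.63 ± 0.08 (3e-05), which is 4 of 9 where 20.5% of all genes tested rose. Fst fell by 2.52 ± 0.13 (adjusted p = 1.85e-09), Mesp1 by 2.36 ± 0.46 (0.000914), Gsc by 2.01 ± 0.33 (0.000183), Eomes by 1.40 ± 0.11 (1.56e-07) and Mixl1 by 1.38 ± 0.10 (8.33e-08), 5 of 9 where 21.3% of all genes fell. The T-box genes were thus split, with T and Tbx6 higher and Eomes lower, and so were the homeobox genes, with Lhx1 and Evx1 higher and Mixl1 and Gsc lower. The call of Tbx6 was lost without Flk1-positive replicate 1 or either Dox library of day 2.5. The endothelial marker sum was 2675 to 2746 CPM in Flk1-positive against 1043 to 1089 CPM in Dox libraries, and the naive pluripotency marker sum 98.6 to 106 against 203 to 207 CPM. The neuroectoderm sum was 254 to 274 against 350 to 364 CPM and the extraembryonic endoderm sum 426 to 429 against 324 to 327 CPM. Of the 7 extraembryonic endoderm markers tested 2 rose, Sox7 and Gata6, and 2 fell, Foxa1 and Sparc (median log2 fold change -0.09). Sox7, which is also on the endothelial list, had 153 CPM in Flk1-positive and 55.5 CPM in Dox samples. In these groups Neurog2 was at 0 in both, Afp in both and Prdm14 in the Flk1-positive cells, and the part of these cell types in the result was not tested.

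Against untreated samples of day 2.5, the same Flk1-positive libraries were lower in 7 of the 9 genes, where 26.6% of all genes tested were lower and 28.6% higher. Mesp1 had a log2 fold change of -5.62 ± 0.39 (edgeR, adjusted p = 1.2e-08), a 49.2-fold difference, and Fst was 30.7-fold lower. T was -0.57 ± 0.08 (adjusted p = 3.34e-05) and Evx1 -0.69 ± 0.14 (0.000526), so both stood above the other Dox samples and below the untreated ones. Lhx1 had -0.25 ± 0.13 (adjusted p = 0.124) and Tbx6 0.71 ± 0.31 (0.0678). Tbx6 was called higher in 4 of the 16 settings, namely without Dox day 2 replicate 1 or 2, without untreated day 2.5 replicate 2, and with the compared groups fitted alone. The count of genes called higher was 0 by DESeq2, and 1 at an unadjusted p under 0.05 in edgeR.

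Ratios within a library do not depend on its depth. The ratio of T to Eomes per kilobase of exon was 8.39 and 7.52 in Flk1-positive, 1.96 and 1.92 in Dox and 1.18 and 1.08 in untreated libraries of day 2.5, and 2.09 and 1.80 with Dox and 1.24 and 1.28 without at day 2. The ratio was therefore higher with Dox than without at both days, and highest in the Flk1-positive cells. Mixl1 to Eomes was 0.567 and 0.472 in Flk1-positive, 0.536 and 0.487 in Dox and 0.705 and 0.609 in untreated libraries of day 2.5, whereas at day 2 it was 1.76 and 1.59 with Dox and 0.686 and 0.652 without. Per kilobase, only the Dox libraries of day 2 had more Mixl1 than Eomes. That order rests on the exon lengths of GENCODE M21, and the annotation used for counting is not given. In CPM these libraries had 347 and 376 for Mixl1 and 357 and 430 for Eomes. Lhx1 to Gsc was 5.85 and 13.3 in Flk1-positive libraries and 0.380 to 0.948 in the 8 other libraries. The Flk1-positive ratios rest on only 43 and 13 counts of Gsc, so their size is imprecise. With 2 libraries in each group the smallest p of a two-sided exact permutation test of a ratio is 0.333, so none was made.

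**Figure D4:**
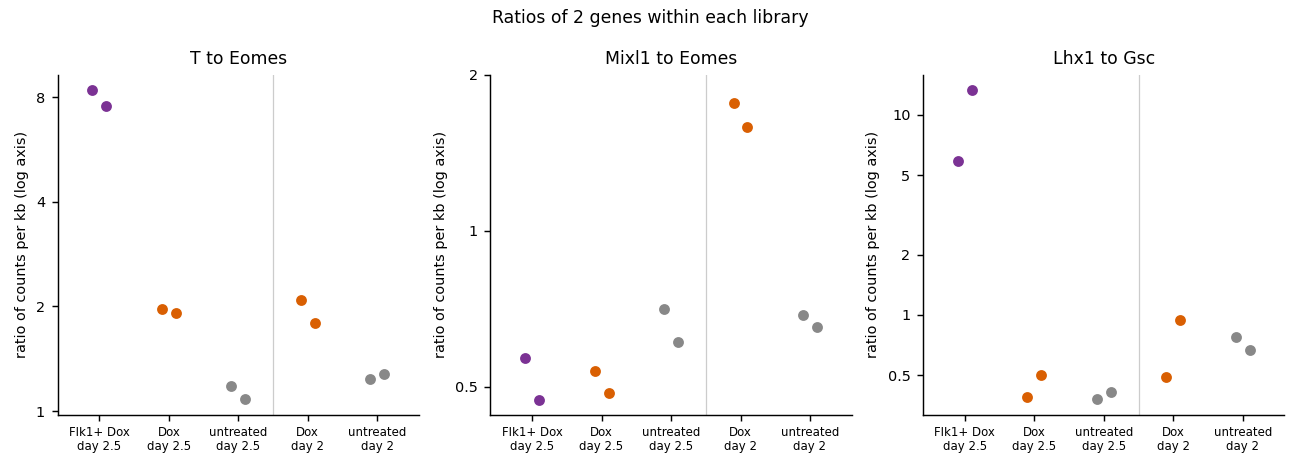
Ratios of counts per kilobase of exon between pairs of the genes (log axes) in the 10 libraries. The Flk1-positive libraries stand apart in T to Eomes (8.39 and 7.52) and Lhx1 to Gsc (5.85 and 13.3), and the Dox libraries of day 2 in Mixl1 to Eomes (1.76 and 1.59).

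Ordered by level per kilobase (RPKM), T was first in all 5 groups. In Flk1-positive cells T had 242 RPKM, followed by Eomes at 30.5, Evx1 at 16.3, Mixl1 at 15.8, Lhx1 at 7.71, Fst at 2.95, Tbx6 at 2.90, Gsc at 0.972 and Mesp1 at 0.333. Evx1 and Mixl1 overlapped there, as did Fst and Tbx6. In Dox samples of day 2.5 the order was T (156 RPKM), Eomes (80.5), Mixl1 (41.2), Fst (17.1), Evx1 (7.87), Gsc (4.08), Lhx1 (1.77), Mesp1 (1.70) and Tbx6 (1.36), with the ranges of Lhx1 and Mesp1 and of Mesp1 and Tbx6 overlapping. In untreated samples of day 2.5 it was T (361), Eomes (320), Mixl1 (209), Fst (91.4), Evx1 (26.3), Gsc (23.2), Mesp1 (16.3), Lhx1 (9.17) and Tbx6 (1.78), where T and Eomes overlapped. At day 2 Mixl1 stood above Eomes with Dox (158 against 94.7 RPKM) and below it without (89.5 against 134 RPKM), and Mesp1 and Gsc overlapped with Dox. Fst, above Evx1 in the other 4 groups, was below Evx1 and Lhx1 in the Flk1-positive cells.

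Signals and partners of these factors were read from 4 lists. Of 21 tested genes of Nodal and activin signalling, 7 fell and 2 rose with Dox at day 2.5 (median log2 fold change -0.18), where 13.8% of all genes tested fell and 16.1% rose, with a median of 0.00. Nodal, the ligand that induces Eomes and Mixl1, had 47.2 CPM with Dox and 147 CPM without, and its co-receptor Tdgf1 and inhibitor Lefty2 had log2 fold changes of -1.84 and -2.25. Fstl1, 1 of the 2 that rose, had 0.97 (140 CPM with Dox and 71.1 CPM without), and 12 genes of the list were not called. Of 22 Wnt and Fgf genes of the streak, 14 fell and 2 rose (median -0.79), and 6 were not called. Among those that fell were Wnt8a at -2.76, Fgf17 at -3.63 and Sp5, a Wnt target, at -1.96. Those that rose were Fgf3 at 2.21 and Lrp5 at 0.30. Of 22 other streak, mesoderm and endoderm factors, 12 fell and 3 rose (median -0.72). Those that rose were Hhex, Sox17 and Gata6, which are also expressed in endothelial or extraembryonic endoderm cells. Zic2 and Otx2 had -1.29 and -1.27 on the log2 scale. Without untreated day 2.5 replicate 2, 1 Nodal and activin gene was called higher, and without any 1 of the 4 compared libraries 1 Wnt and Fgf gene was. Among 11 tested paralogues of the 9 genes, Tbx20 and Tbx3 rose and Mesp2 fell, with a median of -0.09. As shares, 33.3% of the Nodal and activin genes, 63.6% of the Wnt and Fgf genes and 54.5% of the other factors fell. Those that rose, 9.52%, 9.09% and 13.6%, were 2, 2 and 3 genes. That is too few to read as a difference from the 16.1% of all genes. Of the paralogues 9.09% fell and 18.2% rose, near the shares of all genes.

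In Flk1-positive against other Dox samples, 7 of the Nodal and activin genes fell and 3 rose (median -0.04), 14 of the Wnt and Fgf genes fell and 2 rose (median -0.68), and 13 of the other factors fell and 3 rose (median -1.06). Over all genes tested 21.3% fell and 20.5% rose. The shares of the lists that rose, 14.3%, 9.09% and 13.6%, rest on 3, 2 and 3 genes. That is too few to read as a difference from the share of all genes. On the log2 scale Nodal had -3.63, Wnt8a -5.51 and Foxa2, an endoderm and node factor, -3.81. Fgf3, 1 of the 2 Wnt and Fgf genes that rose, had 2.15. Without Flk1-positive replicate 1, 1 Nodal or activin gene was called higher. In untreated samples, 10 Wnt and Fgf genes were higher at day 2.5 than at day 2 and 3 were lower (median 0.50), and 7 of the other factors were higher and 2 lower, where 9.22% of all genes were higher and 10.3% lower. Examples were Foxa2 at 2.30 and Snai1, a repressor of E-cadherin, at 0.95. Without untreated day 2.5 replicate 2 these counts of higher genes were 6 and 3, and without untreated day 2 replicate 1 the lower Wnt and Fgf genes were 1 and the higher other factors 3. With Dox at day 2, 4 Nodal and activin genes and 6 Wnt and Fgf genes fell, where 1.56% of all genes fell, but 2 of the first without either untreated library of that day, and 10 of the second without Dox day 2 replicate 1. The day 2.5 comparisons share libraries, so their values stand side by side and are not independent.

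**Figure D5:**
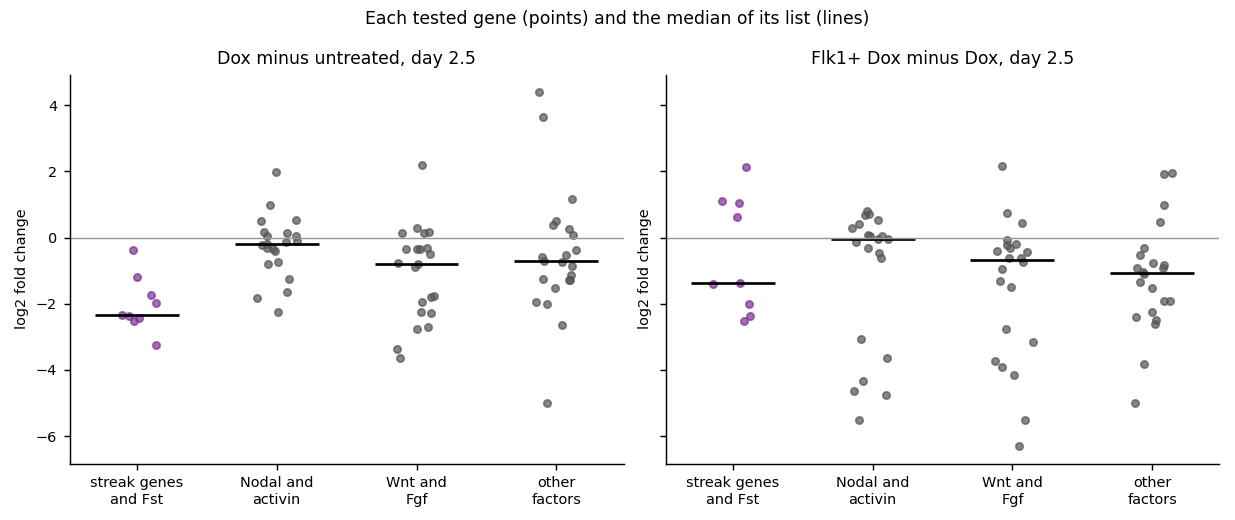
Log2 fold change (vertical axes) of each tested gene of the 9 and of 3 lists, with lines for the medians, for Dox against untreated and for Flk1-positive against other Dox samples at day 2.5. The 9 genes have a median of -2.34 in the first panel, where the lists have -0.18, -0.79 and -0.72. Both the 9 and the lists were chosen with earlier results of these data known.

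The genes whose log2 CPM followed each of the 9 most closely over the 10 libraries, among 10064 candidates, differed from gene to gene. Gsc was followed by Rcor2 (Pearson r 0.996) and Fgf17 (0.989), and Fst by Mycl1 (0.997) and Fgf17 (0.996), so that Fgf17 was among the nearest 3 for both. Eomes was followed by Trak1 (0.989), Mixl1 by Mphosph10 (0.987) and Mesp1 by Tnfrsf12a (0.988). T, Lhx1, Evx1 and Tbx6, the genes that were higher in Flk1-positive cells, had as nearest genes Efha2 (0.928), Zfp317 (0.967), Upp1 (0.963) and Dennd5a (0.959), with lower coefficients than the first 5. The libraries of a group share their treatment and day, so these coefficients describe group means more than 10 separate points.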

How the data were processed

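Libraries of total RNA were prepared from embryoid bodies, with 2 libraries in each of 5 groups, assigned from the labels. The authors deposited raw counts for each gene. TopHat, HTSeq, DESeq2 and mm10 are named without versions or roles, per the submitters' processing notes. Annotation and strand setting: not given in the sources used here. The 92 spike-in entries, all at 0, were left out.

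The counts were tested with edgeR 4.0.16 in R 4.3.3. The function filterByExpr (minimum count 10, minimum total 15) kept 14548 genes, libraries were scaled by TMM, and a robust quasi-likelihood fit of all 10 libraries took 1 mean for each group (5 residual degrees of freedom, common biological coefficient of variation 0.100). Adjusted p-values are Benjamini-Hochberg over all genes tested in each of 7 comparisons, with a threshold of 0.05. Standard errors come from the quasi-likelihood F statistic. CPM uses the TMM-scaled library size, and RPKM divides it by the union of exons in GENCODE M21. Coefficients between genes use log2 CPM (prior count 2) and candidates with a mean of at least 5 CPM. The procedure was tested on simulated data. Alternatives were DESeq2 1.42.0, its size factors in edgeR, no filter, a replicate block, removal of length and GC trends, the compared groups alone, and leaving out each library. Named genes were the 9, Etv2 and Kdr, up to 4 list genes per comparison with the smallest adjusted p, and the 3 nearest genes of each. Fgf3 and Lrp5, which rose, were named outside this rule. The 9 genes and the lists were chosen with earlier results of these data known.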

Additional observations from a re-analysis of the deposited data

Results flagged for a closer look

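The effect of Dox differed between day 2.5 and day 2, by the interaction term of the edgeR model, in 8 of the 9 genes. The interaction was -3.16 for Mixl1, -2.27 for Mesp1, -1.90 for Gsc, -1.70 for Fst, -1.66 for Lhx1, -1.49 for Eomes, -1.32 for T and -1.28 for Evx1 on the log2 scale. Mixl1 is the gene of the 9 in which the Dox effect was called in opposite directions, lower at day 2.5 and higher at day 2. Each of the 8 was called in all 16 alternative settings, and Gsc, the weakest, had adjusted p-values of 2.04e-11 to 0.0194 there.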

How the results depend on the processing

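The 63 values, of 9 genes in 7 comparisons, were recomputed in 16 settings. Of the 1008 recomputed values 959 kept direction and side of the threshold, 28 lost and 16 gained a call, and 5 changed sign. The 8 genes lower with Dox at day 2.5 and the 8 interaction calls held in all 16. With Dox at day 2 the number called lower, 4, was 1 when the compared groups were fitted alone and 1 to 6 on leaving out a library. For Flk1-positive against untreated samples the number called higher, 0, was 1 with the compared groups alone and 0 to 1 on leaving out a library. The sign changed in 3 uncalled values. On leaving out a library, Tbx6 with Dox at day 2 ran from -0.61 to 0.075, Mesp1 over time without Dox from -0.18 to 0.040 (0.026 with length and GC trends removed) and the interaction of Tbx6 from -0.47 to 0.21. The causes were not tested.

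Replicates with the same number did not deviate together (correlation of deviations between groups from -0.0337 to 0.0979). This cannot show whether they came from the same culture or batch, which is not stated. With the replicate block, 486 genes rose and 254 fell with Dox at day 2, against 453 and 227 without it. Over all settings the genes lower with Dox at day 2 numbered 38 to 1275, and those lower at day 2.5 1032 to 4150 against 2001. Removing length and GC trends moved the median of all genes with Dox at day 2.5 to -0.148 and the share of its calls that were higher to 30.7%, against 54%.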
